A study of Mus musculus with 3 samples.

Results

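Resting-type regulatory T cells (Tregs) of mouse epidermis were compared with the same kind of cell from lymph node. The cells were chosen by measured values: after each cell had been thinned at random to 1500 UMIs (unique molecular identifiers, 1 per captured transcript), a cell was taken as resting-type when it held UMIs of at least 2 of the 6 genes Tcf7, Lef1, Satb1, Bcl2, Evl and Igfbp4. The rule found 31 of 262 epidermal cells and 4071 of 9216 lymph node cells, 4102 of 9478 in all. The whole series held 10414 cells that passed the same gate in epidermis, dermis and lymph node. With 31 cells, the epidermal side was small, and every value below for that side rests on them.

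The study collected single-cell RNA counts from Tregs of back epidermis, dermis and lymph node of adult mice, with 1 library per tissue. All mice carried the Foxp3 reporter of the strain FOXP3-EGFP (C.Cg-Foxp3tm2Tch/J), in which green fluorescence marks cells that express Foxp3, and no other allele or treatment is named in the labels. Thermolysin was used to part the skin layers, whereas lymph node was mashed, and cells positive for GFP, CD4, CD3 and CD45 were sorted. Epidermis was run with the v3 and lymph node with the v2 form of the 10x 3′ kit, so tissue, handling and kit cannot be told apart in any comparison between them. How many animals gave each library, their sex and their exact age are not stated in the labels. With 1 library per side there was no replicate error and no test, and all intervals given are exact 95% intervals that cover counting error only. Many values are set beside those of the other cells of the same libraries, which share the tissue, handling and kit. A gene or list given without them is not thereby particular to resting-type cells.

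Tregs hold immune responses in check as CD4 T cells under the transcription factor Foxp3. Those that circulate through lymphoid organs keep the transcription factors Tcf7 and Lef1, the survival protein Bcl2 and receptors for entry into and exit from lymph nodes, and are called resting or central. Those settled in tissues such as skin lose much of this set and carry effector products, adhesion molecules and receptors for tissue signals.

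The share of resting-type cells, which the rule itself defines, was 11.8% of epidermal cells (exact Clopper-Pearson interval 8.18 to 16.4) and 44.2% of lymph node cells (43.2 to 45.2). In dermis, 4 of 815 cells met the rule, too few to describe further. In epidermis, 188 cells had none of the 6 genes, 43 had 1, 17 had 2, 11 had 3 and 3 had 4. In lymph node, 2023 cells had none, 3122 had 1 and 2479 had 2. The draw of UMIs moved single cells across this limit. Over 20 further draws, the epidermal number lay between 26 and 38, and 67 epidermal cells were chosen at least once, but 4 cells were chosen every time. Of the 31 cells, 21 were chosen in at least 10 of these draws. List medians and calls are given with their range or count over these draws where they were computed; levels in CPM, values per cell and gene counts within lists are those of 1 draw.

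**Figure D1:**
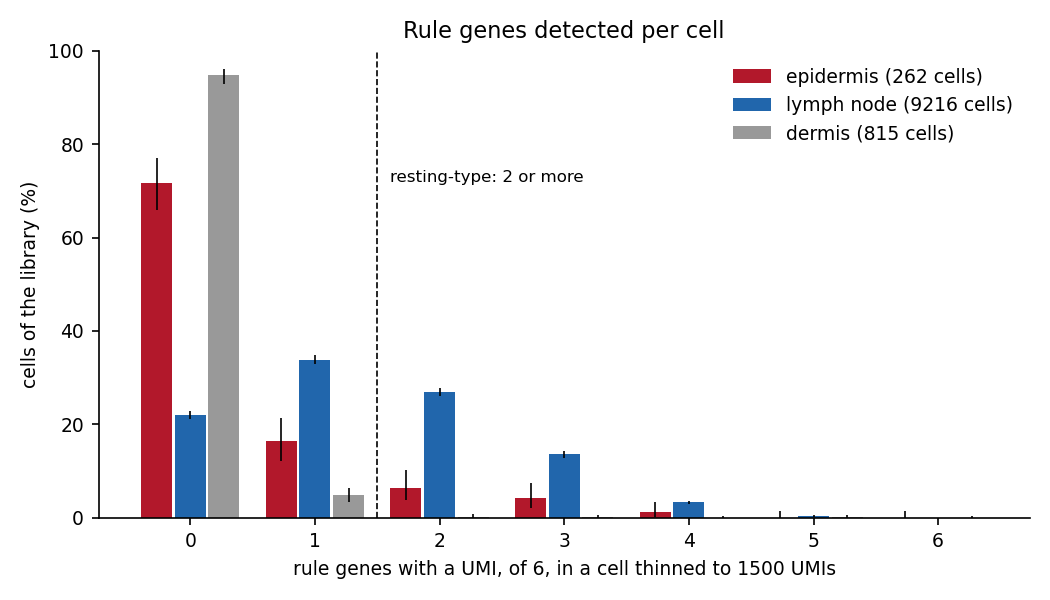
Share of the cells of each library (y axis, %) by the number of the 6 rule genes with a UMI at 1500 UMIs per cell (x axis); bars are shares with exact 95% Clopper-Pearson intervals. Of the epidermal cells, 188 of 262 have none of the genes, while 4071 of 9216 lymph node cells lie to the right of the dashed line.

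The 31 epidermal cells held 257186 UMIs, with a median of 8572 per cell (2238 to 14550), and the 4071 lymph node cells held 13651595, with a median of 3005 (1514 to 24743). Levels are given as CPM, the UMIs of a gene summed over the cells of a pool scaled to a pool of 1000000 UMIs, so that 50 CPM in the epidermal pool is 12.9 UMIs. Epidermal and dermal libraries shared 43 barcodes, of which 0 were among the 31 resting-type cells and 31 among the 231 other epidermal cells. Epidermal and lymph node libraries shared 0 barcodes. Y-linked UMIs were found in 16 of the 31 epidermal and 0 of the 4071 lymph node resting-type cells, and Xist UMIs in 7 and 2889, so the libraries also differed in transcripts that mark sex. Ribosomal protein genes took 38.9% of UMIs in epidermal and 37.9% in lymph node resting-type cells, against 23.3% and 34.8% in the other cells. Mitochondrial genes took 4.31% of UMIs in epidermal and 2.33% in lymph node resting-type cells.

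Markers of other cell types were scarce in the epidermal resting-type cells. Keratinocyte markers summed to 31.1 CPM there, with 8 of 12 genes at 0, and to 37.7 CPM in lymph node resting-type cells. Mast cell, neutrophil, fibroblast and erythroid markers had no UMI in the epidermal pool, and macrophage markers had 1. Dendritic and Langerhans cell markers summed to 179 CPM, all from 4 of 11 genes and mostly from Cd74 and Cst3, against 244 CPM in lymph node. Endothelial and mural markers summed to 93.3 and 99.0 CPM, nearly all from Pecam1, which resting T cells also carry. B cell markers summed to 15.6 and 25.2 CPM and melanocyte markers to 3.89 and 0.293 CPM. Those of CD8 T and NK cells came to 109 and 48.5 CPM. Of these, Cd8a had 5 UMIs (19.4 CPM) in the epidermal pool, against 3 UMIs (0.22 CPM) in the far larger lymph node pool. The innate lymphoid list reached 194 and 126 CPM, mostly through Il7r and Rora, which T cells also express. Of the gamma-delta T cell list, 2 of 7 genes were in the gene table, Cd163l1 and Sox13. Both were at 0 in every pool, other cells included, so this list cannot show whether gamma-delta T cells were present. The part of these transcripts in the results below was not tested.

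The 6 rule genes can be read again in the UMIs that thinning had left out, which the rule did not use. In those UMIs the resting-type cells of both tissues had epidermis-to-lymph-node ratios of 1.10 for Tcf7 (0.698 to 1.64), 0.855 for Lef1 (0.606 to 1.17), 0.837 for Bcl2 (0.684 to 1.01), 0.824 for Evl (0.613 to 1.08), and 1.11 for Igfbp4 (0.793 to 1.53), whose intervals all include 1. The chromatin organiser Satb1 was higher in epidermis, at a ratio of 1.90 (1.44 to 2.46). In the other cells the same ratios lay between 0.156 for Bcl2 and 0.477 for Satb1. Within lymph node, resting-type and other cells lay near each other in left-out UMIs for Tcf7 (104 and 89.8 CPM). They lay further apart for Igfbp4 (170 and 57.4 CPM). Within epidermis the levels were 114 and 23.5 CPM for Tcf7 and 190 and 26.7 CPM for Igfbp4. These values describe the same cells that the rule had chosen and support nothing about the genes as markers.

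Cells just outside and just inside the limit are described here, in genes that the rule did not read. The median epidermal cell with 1 rule gene, just outside the limit, had 19 UMIs of the 31 effector Treg genes among its 1500, and the median cell with 2, just inside, had 3. In lymph node the corresponding medians were 4 and 3. For the homing and resting genes outside the rule, the epidermal medians were 9 and 12, and the lymph node medians 11 and 12. The calcium-binding protein gene S100a4 stood at 2215 CPM in epidermal cells with 1 rule gene and at 198 CPM in those with 2.

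The question set by the comparison is how far cells of 1 resting type differ between a barrier tissue and lymph node. A gene was called higher or lower in epidermis when its ratio reached 2-fold with at least 50 CPM in the higher pool. Among resting-type cells, 325 of 2768 genes with that level (11.7%) were called higher in epidermis and 264 (9.54%) lower. Of the higher genes, 124 had the whole counting interval above 2-fold. Of the lower genes, 25 had the whole interval beyond 2-fold, and 146 of the 264 had under 10 epidermal UMIs, so single lower genes are weakly measured. Over the 20 draws, between 260 and 361 genes were called higher and between 195 and 333 lower. Among the other cells of the same libraries, 572 of 3131 genes (18.3%) were called higher in epidermis and 121 (3.86%) lower. Of the genes called higher in resting-type cells, 186 were called higher in the other cells too, which is 57.2% of the resting-type list and 32.5% of the other list. Of the lower genes, 35 were lower in both, 13.3% of the resting-type list and 28.9% of the other. No gene was called in opposite directions. The median gene stood at a log2 ratio of -0.15 in resting-type and 0.14 in other cells, and list medians below are to be read against these. Counts of calls within lists are to be read against the 11.7% and 9.54% of all genes in resting-type cells. For the other cells, these shares were 18.3% and 3.86%.

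**Figure D2:**
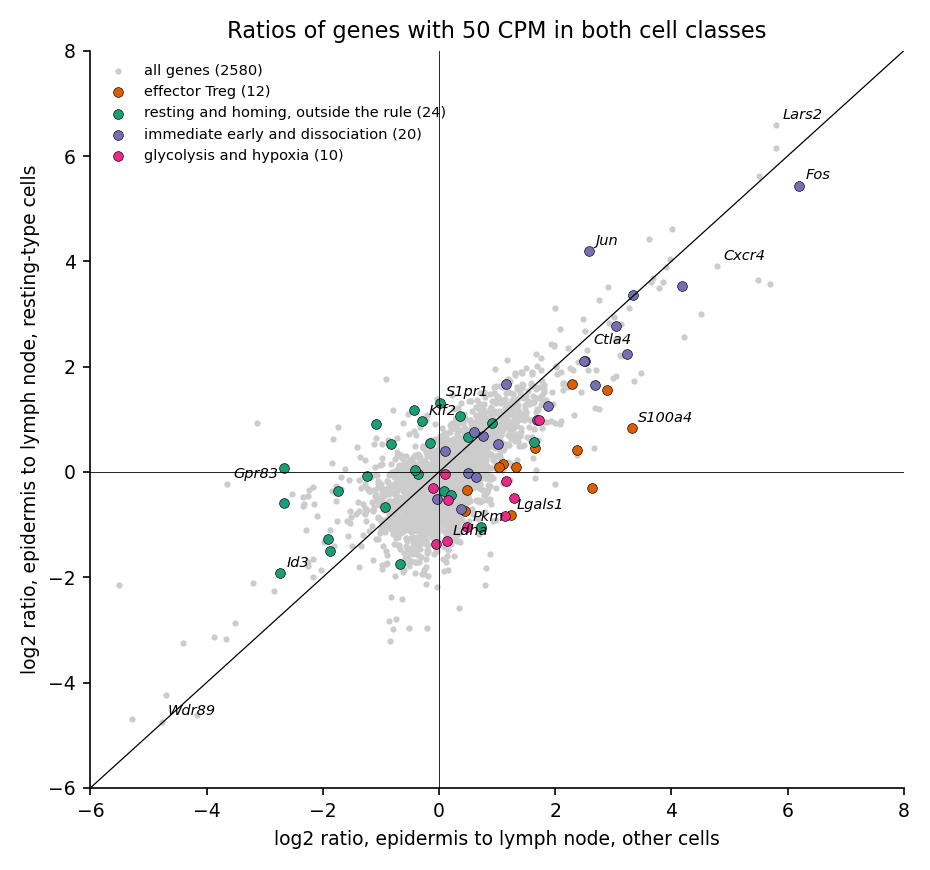
Log2 ratio of epidermis to lymph node in the other cells (x axis) and in resting-type cells (y axis) for the 2580 genes with at least 50 CPM in both cell classes; each point is 1 gene, coloured points are members of 4 gene lists, and the diagonal marks equal ratios. The 12 effector Treg genes shown lie below the diagonal, with larger ratios in the other cells, Fos and Jun lie high in both, and Lars2 and Wdr89 lie far out in both.

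Some genes stood far apart at like ratios in both cell classes. Wdr89 stood at 105 and 2809 CPM, 26.8-fold lower in epidermis, and was 27.3-fold lower in the other cells. Rab21 (14.9-fold higher) and Hnrnpa0 (12.2-fold) had ratios of 15.1 and 12.6 in the other cells. Differences that both cell classes carry alike cannot be told apart from those of kit and handling. Lars2, a mitochondrial leucyl-tRNA synthetase, stood at 365 CPM in epidermal and 3.81 CPM in lymph node resting-type cells, 96.0-fold higher, and was 56.0-fold higher in the other cells. The histone genes Hist1h4d and Hist1h2ap were 12.2-fold and 11.8-fold higher in resting-type cells and 14.5-fold and 51.9-fold higher in the other cells, but they share sequence with other histone genes and their values are uncertain.

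As a list, homing and resting genes outside the rule stood in epidermal resting-type cells at about the level of lymph node, while single members went both ways. The 28 genes had a median log2 ratio of 0.03 (-0.23 to 0.21 over the draws), against -0.42 in the other cells, and their summed level was 8935 CPM in epidermis and 8023 CPM in lymph node. Of 25 with at least 50 CPM, 4 were called higher, 5 lower and 16 neither, beside 11.7% higher and 9.54% lower of all genes. In the other cells, 1 of 24 was called higher and 8 lower, with summed levels of 4621 and 6694 CPM.

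Within this group, genes for leaving and circulating between lymphoid organs did not share 1 direction. S1pr1 was called higher, Klf2 and Ccr7 had ratios above 1 that fell short of the call, and S1pr4 was called lower. S1pr1 encodes the sphingosine 1-phosphate receptor through which T cells leave tissues into lymph and blood (mm10 chromosome 3, 115710433 to 115715072). It stood at 342 CPM (274 to 422) in epidermal and 137 CPM in lymph node resting-type cells, 2.49-fold higher (1.99 to 3.08), and was called higher in all 21 alternative settings and all 20 draws. The other cells of both tissues had 103 and 102 CPM. Its transcription factor Klf2, which drives S1pr1 (chromosome 8, 72319033 to 72321656), stood at 1765 CPM (1607 to 1935) and 905 CPM, a ratio of 1.95 (1.77 to 2.14) that fell short of the call. Over the draws its log2 ratio lay between 0.43 and 0.93, all under the 0.96 of the main draw. Among other cells, Klf2 stood at 544 CPM in epidermis and 662 CPM in lymph node. Epidermal resting-type cells thus carried more Klf2 and S1pr1 than any of the other 3 pools.

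Ccr7, the chemokine receptor for entry into lymph nodes, stood at 385 and 265 CPM, a ratio of 1.45 (1.18 to 1.78), and at 110 and 195 CPM in the other cells. Over the draws the log2 ratio of Ccr7 lay between 0.62 and 1.17, with 8 of 20 past the call.

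Other members of the group went both ways. Bach2, a repressor that holds back effector differentiation, stood at 101 CPM (66.0 to 148) in epidermis and 36.0 CPM in lymph node, 2.81-fold higher, and was called in 17 of 20 draws. The kinase gene Txk was 2.26-fold higher and was called in 10 of 20 draws, and Foxp1, a factor of T cell quiescence named here after its values were seen, was 2.08-fold higher. Id3, an inhibitor of E proteins, stood at 77.8 CPM (47.5 to 120) and 294 CPM, 3.78-fold lower, and was lower in all draws. It was 6.66-fold lower in the other cells too. S1pr4, another sphingosine 1-phosphate receptor, stood at 42.8 and 143 CPM, 3.35-fold lower in resting-type cells, and at 90.6 and 144 CPM in the other cells. The remaining lower genes were Pdlim1 (2.84-fold) and, named after their values were seen, Ssbp2 (2.43-fold) and Arl4c (2.08-fold). Pdlim1 was lower by 2-fold in 1 of 20 draws.

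The GIMAP genes, GTPases linked to the survival of naive and resting T cells, also stood near the level of lymph node as a list in resting-type cells. All 8 were measured there, none was called, and their median log2 ratio was -0.15 (-0.33 to 0.12 over the draws). Over all genes, 11.7% were called higher and 9.54% lower in resting-type cells, and 3.86% lower in the other cells. Among the other cells 4 of 8 were called lower, and the median was -1.06. Gimap6 stood at 533 and 368 CPM in resting-type cells and at 150 and 329 CPM in the others.

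The Treg core genes had a summed level of 4258 CPM in epidermal and 4308 CPM in lymph node resting-type cells, a ratio of 0.988 (0.930 to 1.05), with 9 of 19 measured members below a ratio of 1. The summed ratio in the other cells was 1.43 (1.41 to 1.46). Of the 3 members called higher in resting-type cells, Foxp3 and Ctla4 were called in every draw. Foxp3 itself lies on chromosome X (7573644 to 7595245) and stood at 73.9 CPM (44.5 to 115) in epidermal and 22.8 CPM (20.3 to 25.5) in lymph node resting-type cells, 3.24-fold higher (1.93 to 5.15). A Foxp3 UMI was found in 14 of the 31 epidermal and 292 of the 4071 lymph node resting-type cells, before thinning. After thinning, the shares were 12.9% (3.63 to 29.8) and 3.51% (2.97 to 4.12). The other cells showed a like gap, at 92.7 and 21.1 CPM. Among cells with a Foxp3 UMI, chosen for that gene, its log2 ratio turned to -0.61.

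Ctla4 encodes a receptor that strips co-stimulatory ligands from antigen-presenting cells (chromosome 1, 60887000 to 60915832). It stood at 548 CPM (461 to 647) and 111 CPM, 4.96-fold higher (4.14 to 5.90) in epidermal resting-type cells. It was called higher in all 21 alternative settings and all 20 draws. The other cells had 1197 and 204 CPM, a 5.87-fold difference. Il2ra, the alpha chain of the interleukin 2 receptor, stood at 311 and 228 CPM, a ratio of 1.36 (1.08 to 1.70), with log2 ratios of -0.51 to 0.37 over the draws. Of the 20 Treg core genes, 17 had at least 50 CPM, of which Foxp3, Ctla4 and Nt5e were called higher and none lower. Over all genes, 11.7% were called higher and 9.54% lower. The median log2 ratio of the list was 0.26, just outside the -0.33 to 0.24 of the draws. Nt5e, the ectoenzyme CD73, was called in 0 of 20 draws, where its log2 ratio lay between -1.63 and 0.66, so its direction was not settled. Gpr83, an orphan receptor of resting Tregs, stood at 109 and 127 CPM in resting-type cells and at 7.29 and 91.3 CPM in the others.

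**Figure D3:**
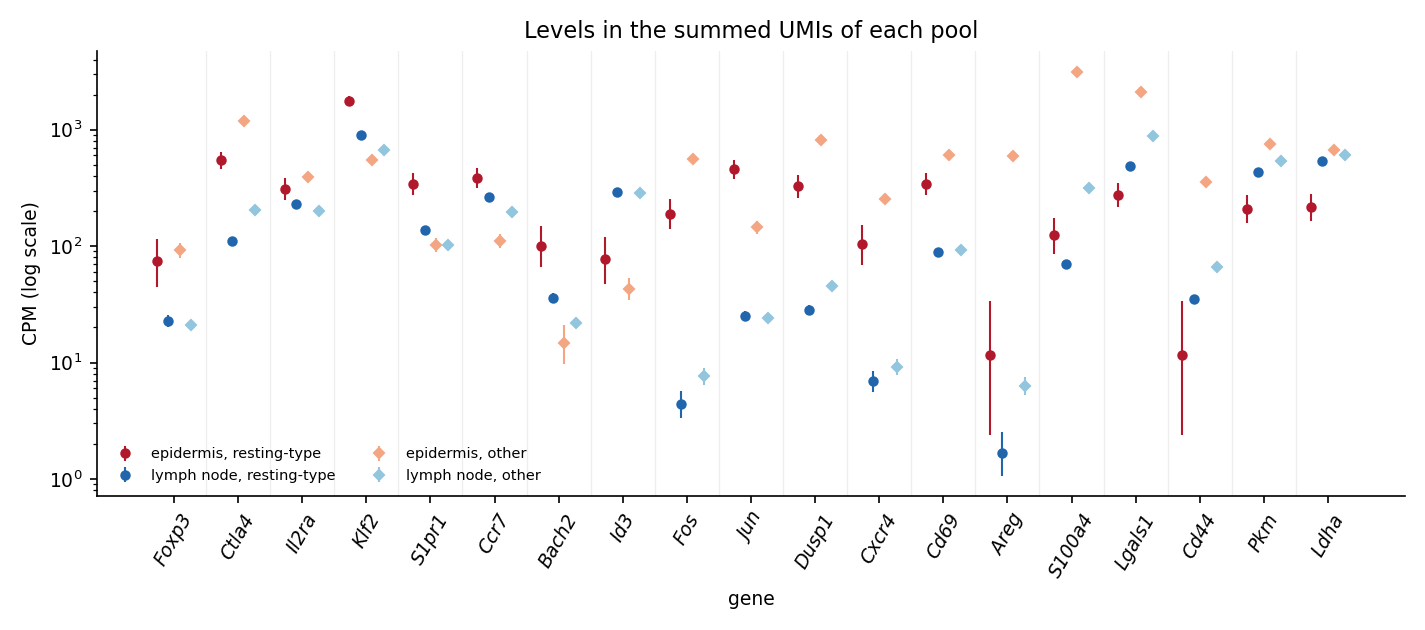
CPM of 19 genes (x axis) on a log scale (y axis) in resting-type (circles) and other cells (diamonds) of epidermis and lymph node; bars are exact 95% Poisson intervals of the summed UMIs. The resting-type cells of the 2 tissues lie close for Il2ra and far apart for Fos, Jun, Dusp1, Cxcr4 and Ctla4, and Areg lies high in 1 pool, that of the other epidermal cells.

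Effector Treg genes had a smaller gap between tissues in the resting-type than in the other cells, by an amount that depended on the rule. Their summed level was 2873 CPM in epidermal and 2770 CPM in lymph node resting-type cells, a ratio of 1.04 (0.963 to 1.12), and 20920 and 5506 CPM in the other cells, a ratio of 3.80 (3.76 to 3.84). Of 24 genes measured at 10 CPM or more, the median log2 ratio was 0.09 (-0.56 to 0.43 over the draws), or -0.04 with the 2 genes at 0 UMIs placed lowest. It was 1.20 with cells thinned to 1000 UMIs, 0.97 among cells that held Xist but lacked Y-linked UMIs and -0.69 with at least 3 rule genes. The median of the other cells minus that of the resting-type cells was 2.03, and 1.03, 0.90 and 3.03 in those settings. Over the same 24 genes the other cells had a median of 1.77, and the ratio was larger in the other cells for 23 of 24. Of 12 genes with at least 50 CPM, 2 were called higher in resting-type cells and none lower, while 23 of 26 were called higher in the other cells. Over all genes, 11.7% were called higher in resting-type and 18.3% in the other cells. The 2 genes, Maf and Rora, were called in 3 and 9 of the 20 draws, and Maf turned direction between draws (-1.44 to 1.62).

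Areg, which encodes the growth factor amphiregulin (chromosome 5, 91139599 to 91148432), stood at 595 CPM in the other epidermal cells. In the epidermal resting-type cells it had 3 UMIs, each in a different cell, or 11.7 CPM (2.41 to 34.1), against 1.68 CPM in lymph node resting-type cells. Over the draws its log2 ratio lay between 0.77 and 7.98, so its level depended on which cells the rule took. S100a4 stood at 124 and 69.8 CPM in resting-type and at 3111 and 313 CPM in the other cells, and 1 cell held 59.4% of its UMIs in the epidermal resting-type pool. Its log2 ratio lay between -1.44 and 2.57 over the draws. Lgals1, the lectin galectin 1, stood at 276 and 486 CPM, a ratio of 0.568 (0.443 to 0.718), and at 2096 and 890 CPM in the other cells. Cd44, an adhesion receptor of activated T cells, had 3 UMIs or 11.7 CPM in epidermal resting-type cells and 352 CPM in the other epidermal cells. Gata3, a transcription factor of type 2 and skin Tregs, stood at 97.2 and 87.8 CPM, a ratio of 1.11 (0.713 to 1.64). Il1rl1, the interleukin 33 receptor, had 2 UMIs in 1 epidermal cell, and the chemokine receptor Ccr8 had 0.

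At 1500 UMIs, the median summed count of the effector genes was 3 in epidermal resting-type cells (0 to 19), 3 in lymph node resting-type cells, 4 in the other lymph node cells and 30 in the other epidermal cells. For the homing and resting genes outside the rule the medians were 13, 12, 10 and 7 in that order of pools. In both lists the other lymph node cells lay nearer to the lymph node resting-type cells than to the other epidermal cells. A ratio in the other cells therefore sets unlike kinds of cell side by side.

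**Figure D4:**
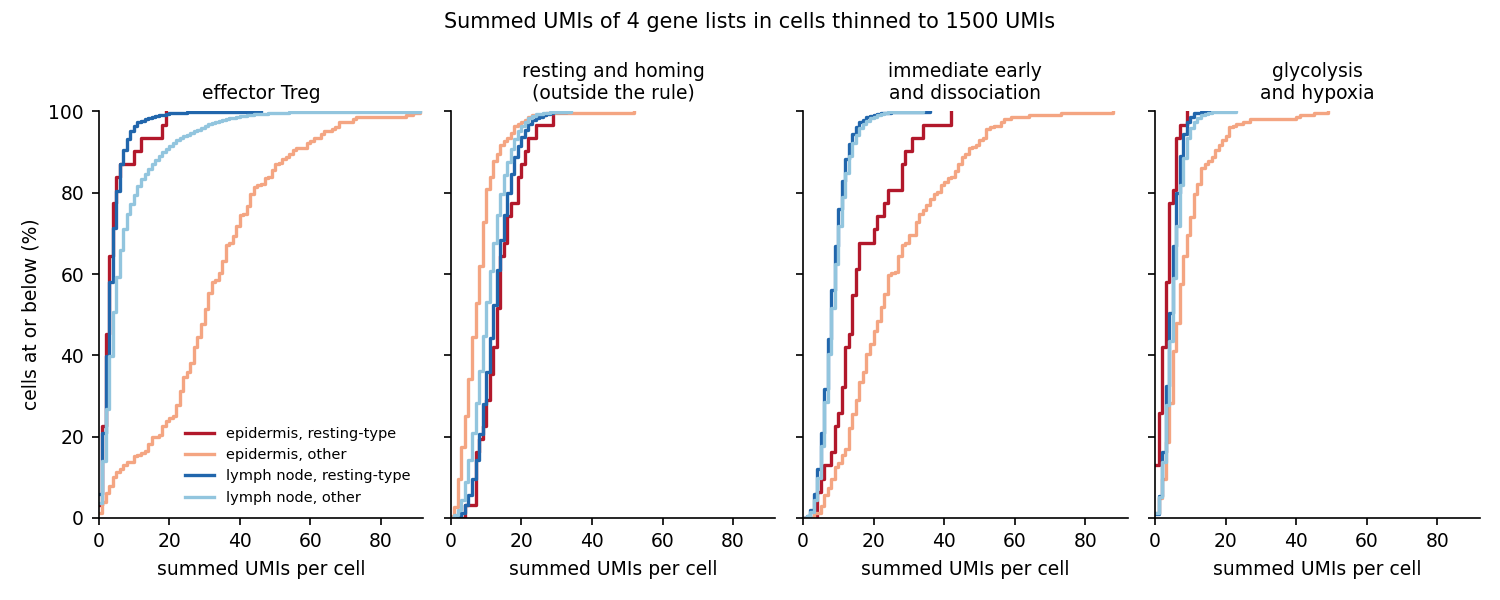
Cumulative share of cells (y axis, %) by the summed UMIs of 4 gene lists in each cell thinned to 1500 UMIs (x axis), for resting-type and other cells of both tissues. For effector Treg genes both resting-type curves rise at the left, with medians of 3, while the other epidermal cells have a median of 30. For immediate early and dissociation genes the epidermal resting-type curve, with a median of 14, lies between the lymph node curves and that of the other epidermal cells.

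The immediate early and dissociation list stood above lymph node in epidermal resting-type cells. Immediate early genes are switched on within minutes by stimulation and also by tissue digestion and cell handling. The list holds heat shock genes too. Of 25 measured members, 18 had ratios above 1 and 7 below, with a summed ratio of 1.79 (1.72 to 1.86). Of 21 with at least 50 CPM, 11 were called higher in epidermis and none lower, with a median log2 ratio of 1.25 (1.03 to 1.81 over the draws), against 14 of 21 and a median of 2.49 in the other cells. Over all genes, 11.7% were called higher in resting-type and 18.3% in the other cells. The median cell held 14 UMIs of the list in epidermal and 8 in lymph node resting-type cells, and 22 and 8 in the other cells.

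Promoters of 3 genes that stood high in this list, and of Areg, which stood high in the other epidermal cells, are printed from RefSeq (GRCm38.p6; 250 bases before to 50 after the start) so that the letters can be set beside the levels. Capitals mark TGACG on either strand, the core of the cyclic AMP response element, and the TATA box TATAAA on either strand; the full element TGACGTCA holds TGACG on each strand. Among 32851 promoters of this length, TGACG was found in 20.8%, TGACGTCA in 1.79% and TATAAA in 13.6%.
Fos, chr12:85473640-85473939, plus strand: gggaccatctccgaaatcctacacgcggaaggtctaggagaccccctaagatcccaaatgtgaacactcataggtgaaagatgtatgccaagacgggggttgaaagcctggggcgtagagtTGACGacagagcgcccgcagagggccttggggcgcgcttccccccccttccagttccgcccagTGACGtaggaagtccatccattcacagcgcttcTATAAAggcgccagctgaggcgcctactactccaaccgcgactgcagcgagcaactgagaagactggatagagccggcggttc
Jun, chr4:95052173-95052472, minus strand: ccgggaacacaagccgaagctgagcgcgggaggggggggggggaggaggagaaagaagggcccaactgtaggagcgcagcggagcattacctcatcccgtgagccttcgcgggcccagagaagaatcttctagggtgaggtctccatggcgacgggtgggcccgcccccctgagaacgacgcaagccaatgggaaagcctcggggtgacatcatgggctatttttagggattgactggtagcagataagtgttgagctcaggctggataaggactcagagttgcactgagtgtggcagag
Dusp1, chr17:26508423-26508722, minus strand: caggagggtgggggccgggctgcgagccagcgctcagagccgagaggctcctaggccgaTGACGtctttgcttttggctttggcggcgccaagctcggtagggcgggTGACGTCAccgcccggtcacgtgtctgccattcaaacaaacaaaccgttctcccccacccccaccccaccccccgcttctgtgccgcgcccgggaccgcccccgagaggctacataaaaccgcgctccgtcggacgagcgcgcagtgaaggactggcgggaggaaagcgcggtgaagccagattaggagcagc
Areg, chr5:91139349-91139648, plus strand: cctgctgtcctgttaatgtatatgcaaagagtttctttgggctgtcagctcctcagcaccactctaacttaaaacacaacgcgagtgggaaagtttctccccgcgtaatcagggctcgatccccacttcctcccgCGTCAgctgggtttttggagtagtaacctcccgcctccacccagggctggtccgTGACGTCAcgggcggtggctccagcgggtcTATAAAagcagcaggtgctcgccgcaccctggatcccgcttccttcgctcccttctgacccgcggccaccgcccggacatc
The window of Dusp1 and that of Areg held the full element, Fos and Areg held TATAAA, and Jun held none of the 3 strings. A match or its absence describes these letters only.

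Fos, a subunit of the transcription factor AP-1 (chromosome 12, 85473890 to 85477273), stood at 191 CPM (141 to 252) in epidermal and 4.40 CPM (3.35 to 5.66) in lymph node resting-type cells, 43.3-fold higher (29.1 to 64.3). In the other cells it stood at 562 and 7.67 CPM. Jun, its partner (chromosome 4, 95049034 to 95052222), stood at 459 CPM (380 to 549) and 25.1 CPM, 18.3-fold higher (14.7 to 22.6), and at 145 and 24.3 CPM in the other cells, 5.96-fold higher. Jun was thus 3.17-fold higher in the resting-type than in the other epidermal cells, while Fos was 2.95-fold lower. Dusp1, a phosphatase that shuts off MAP kinases, stood at 327 and 28.3 CPM, 11.5-fold higher, with 29.8% of its epidermal UMIs in 1 cell. Ppp1r15a, a regulator of the stress response, stood at 148 and 14.4 CPM, 10.2-fold higher. All 4 were called higher in every draw and every alternative setting. Junb, named after its values were seen, stood at 1205 and 177 CPM, 6.82-fold higher. Whether skin handling, kit or tissue gave these levels cannot be told apart.

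Of 7 tissue residence genes with at least 50 CPM, 5 were called higher and none lower (median log2 ratio of 13 measured genes 0.77, -0.08 to 1.40 over the draws), against 10 of 11 and a median of 1.59 in the other cells. Among all genes, 11.7% were called higher in resting-type and 18.3% in the other cells. Cxcr4, a chemokine receptor, stood at 105 CPM (69.2 to 153) in epidermal and 6.96 CPM in lymph node resting-type cells, 15.1-fold higher, and at 255 and 9.20 CPM in the other cells. Cd69, which opposes S1pr1 at the cell surface, stood at 342 and 89.7 CPM, 3.82-fold higher (3.04 to 4.74), and at 609 and 93.2 CPM in the other cells. Both were higher in all 20 draws. Vps37b, of the endosomal sorting machinery, was 3.69-fold higher, and Rgs2, a regulator of G protein signalling, 3.31-fold, in 20 and 17 of 20 draws. Itgae, the CD103 chain that binds E-cadherin, had 16 UMIs in 7 of the 31 cells, or 62.2 CPM against 27.0, and its log2 ratio lay between -2.82 and 1.31 over the draws. In the other epidermal cells it stood at 523 CPM.

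Among 9 T cell receptor response genes at 50 CPM, 2 were called higher and 7 were not called, beside 11.7% of all genes called higher. Tnfaip3, an inhibitor of NF-kappaB, was 11.3-fold higher (163 against 14.4 CPM) and the nuclear receptor gene Nr4a1 4.58-fold (121 against 26.3 CPM). In the other cells 11 of 16 were called higher, and the median log2 ratios were 0.15 in resting-type (-0.12 to 0.59 over the draws) and 1.35 in other cells. Lck, the kinase next to the receptor, stood at 338 and 708 CPM, 2.09-fold lower, but was lower by 2-fold in 0 of 20 draws, and was 1.92-fold lower in the other cells.

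Signals of the TGF-beta pathway keep Tregs in epithelia. In the list named after it, 7 genes had at least 50 CPM, of which 4, with Tsc22d3 among them, were called higher and 1 lower. Among all genes, these shares were 11.7% and 9.54%. Smad7, the inhibitor that the pathway induces, stood at 272 CPM (212 to 344) and 78.7 CPM, 3.46-fold higher, and at 511 and 64.1 CPM in the other cells. Smad4, the shared signal carrier, was 5.04-fold higher at 58.3 against 11.6 CPM, and Tsc22d3, a glucocorticoid-induced gene, 2.43-fold. They were called in 18 and 7 of 20 draws. Ski, a corepressor named after its values were seen, was 2.32-fold higher. Tgfbr1, the type I receptor, had 3 epidermal UMIs and was 4.41-fold lower, in 8 of 20 draws. The median log2 ratio of 15 genes was 1.22, above the 0.57 to 1.04 of the 20 draws, and 1.14 in the other cells.

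Of 12 genes of the BCL2 family and cell death list at 50 CPM, 3 were called higher, 1 lower and 8 neither, beside 11.7% and 9.54% of all genes. The median log2 ratio of 19 measured members was 0.15 (-0.29 to 0.35 over the draws) and 0.65 in the other cells. Mcl1, a relative of Bcl2 that blocks cell death, stood at 513 CPM (429 to 609) and 115 CPM, 4.47-fold higher in epidermal resting-type cells, and 3.39-fold higher in the other cells. Bcl2l11, which encodes the pro-death protein Bim, stood at 73.9 and 18.1 CPM, 4.08-fold higher, and at 38.5 and 17.0 CPM in the others. Birc2, an inhibitor of apoptosis, was 3.16-fold higher and was called in 13 of 20 draws. Bcl2a1b, which has near-identical copies and is uncertain, was 3.55-fold lower on 6 UMIs, in 11 of 20 draws.

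Genes of glycolysis and hypoxia stood lower against lymph node in the resting-type cells than in the other cells. Their median log2 ratio was -0.50 (-0.57 to 0.09 over the draws), against 1.05 in the other cells. In resting-type cells 3 of 10 were called lower and none higher, beside 9.54% and 11.7% of all genes. In the other cells 8 of 15 were called higher and none lower. For all 17 genes measured in both classes the ratio was larger in the other cells. Ldha, lactate dehydrogenase, stood at 218 CPM (164 to 283) and 540 CPM in resting-type cells, 2.48-fold lower, and at 665 and 607 CPM in the others. Pkm, pyruvate kinase, stood at 210 and 435 CPM, 2.07-fold lower, and at 747 and 537 CPM in the others. Ldha was lower by 2-fold in 1 of 20 draws and Pkm in 13, and their log2 ratios were below 0 in all of them. Ddit4, a stress-induced inhibitor of mTOR, was 2.57-fold lower on 13 UMIs.

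Of 23 genes of oxidative phosphorylation, 21 had ratios below 1 in resting-type cells, 7 of 23 were called lower and none higher. Of all genes, 9.54% were called lower. The median log2 ratio was -0.57 (-0.65 to -0.37 over the draws), against -0.22 in the other cells, in which none of 23 was called. The median of all genes was also lower in resting-type cells, at -0.15 against 0.14. The list lay below that median in both cell classes. Atp5g1, a subunit of ATP synthase, stood at 121 and 287 CPM, 2.38-fold lower, and cytochrome c (Cycs) at 73.9 and 177 CPM, 2.39-fold lower. Both were lower by 2-fold in 2 and 5 of the 20 draws. Pfn1, an actin-binding protein, stood at 1481 CPM (1336 to 1638) and 3942 CPM, 2.66-fold lower in every draw, against 1.95-fold lower in the other cells.

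**Figure D5:**
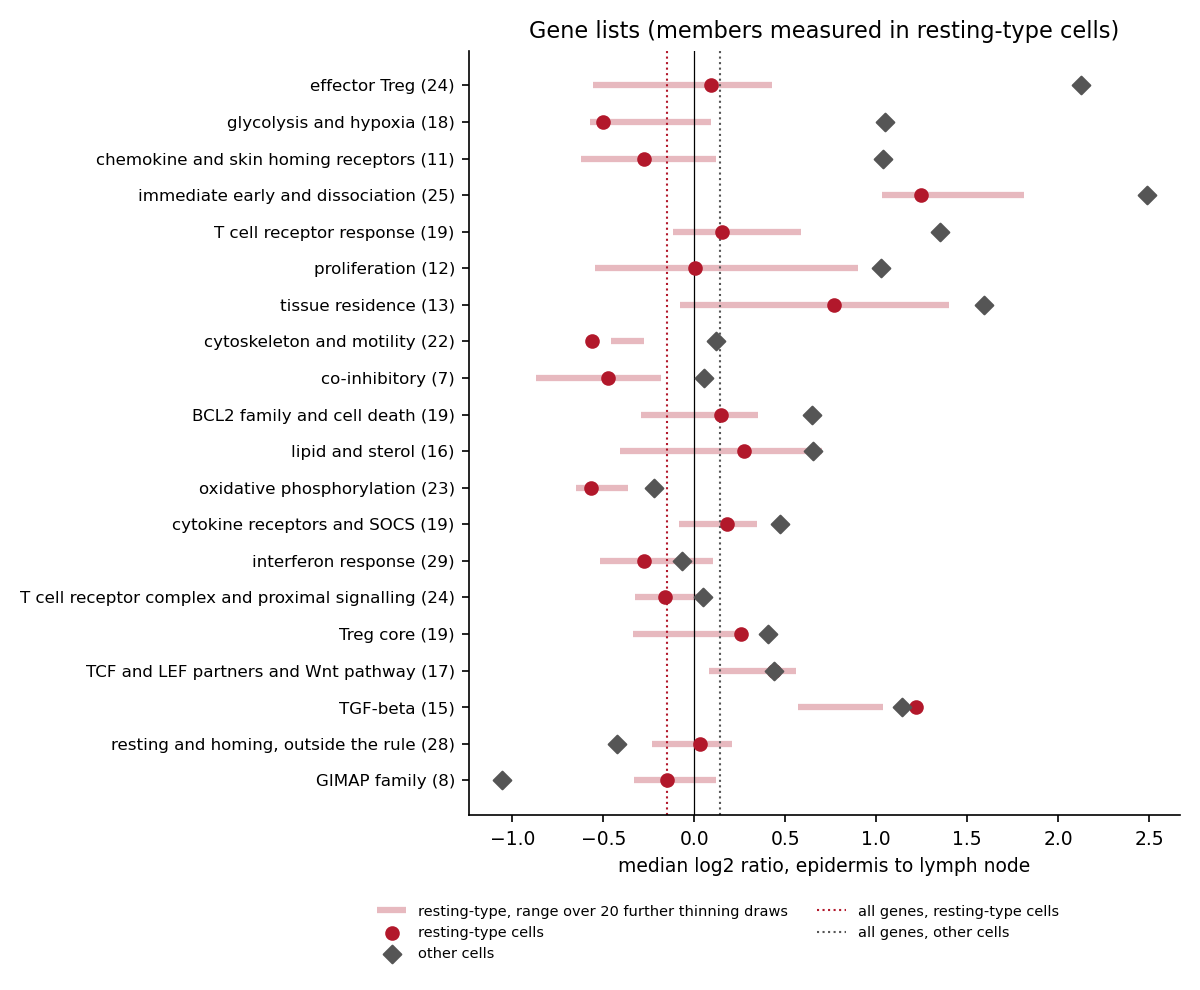
Median log2 ratio of epidermis to lymph node (x axis) of 20 gene lists (y axis, with the number of genes measured in resting-type cells); circles are resting-type cells, bars their range over 20 further thinning draws, diamonds the other cells, and dotted lines the median of all genes in each class. The diamond lies far to the right of the circle for effector (2.13 against 0.09) and glycolysis genes (1.05 against -0.50), and immediate early and TGF-beta genes lie to the right in both. The circles of TGF-beta, cytoskeleton and Treg core genes lie outside their bars.

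Other lists are given briefly. Over all genes, 11.7% were called higher and 9.54% lower in resting-type cells. The interferon response list gave a median log2 ratio of -0.27 and 1 of 24 called higher (Gbp4, in 2 of 20 draws) and 2 lower (Irgm1 and Tgtp2, in 13 and 7). In the list of Tcf7 and Lef1 cofactors and the Wnt pathway, 2 of 7 genes at 50 CPM were called higher. The corepressor gene Tle4 was 4.01-fold higher in all 20 draws. Apc, of the beta-catenin destruction complex, was 4.93-fold higher, in 15 draws, and 3.04-fold higher in the other cells. The median of the list was 0.44 in both cell classes. Proliferation genes had none of 5 called in resting-type cells, and Top2a and Stmn1 had 1 UMI each, against 7 of 12 called higher in the other cells. Of 3 chemokine and skin homing receptors at 50 CPM, none was called, against 6 of 9 called higher in the other cells. Of 3 co-inhibitory genes at 50 CPM, Tox was 2.50-fold higher, in 20 of 20 draws. Vsir and Cd96 were 2.39-fold and 2.15-fold lower, in 2 and 0 of 20 draws. Lipid and sterol genes had 1 of 3 called (Srebf2, in 0 of 20 draws), and cytokine receptors and signal genes 1 higher (Stat4, 2.83-fold, in 19 of 20 draws) and 2 lower (Il21r and Il4ra, in 4 and 7) of 14. None of the helper T cell cytokine genes reached 50 CPM. Of 22 cytoskeleton genes, Myh9, Dock8 and Flna (in 16, 20 and 5 of 20 draws) were called higher and Pfn1 lower, with a median of -0.56, outside the range of -0.46 to -0.28 of the draws.

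Genes whose ratio was furthest above that of the other cells included Gsta4, Gpr83, Nrn1, Mbnl3, Tbc1d4, Slc35d1 and Nsg2. Of these, Slc35d1, a nucleotide sugar transporter, was called higher, at 89.4 against 17.0 CPM, in 19 of 20 draws. Nrn1 had 78.3% of its UMIs in 1 cell, was called in 4 of 20 draws and turned direction between them. The genes furthest below were Areg, Stmn1, Icam1, Pmepa1, Gadd45b, Ccl4, Top2a and Cd44, each with 1 to 3 UMIs in the epidermal resting-type cells. The lowest ratios after Wdr89 were those of Diablo, Fnta, Ahsa1, Cbr1, Pigt, Arf3, Sit1, Mrpl17 and Stip1, each with 2 to 4 epidermal UMIs, so their levels are poorly known.

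Restricting both sides to the cells that held Xist but lacked Y-linked UMIs left 7 epidermal and 2889 lymph node cells. There the log2 ratios were 5.45 for Fos, 4.08 for Jun, 1.95 for Ctla4, 1.55 for S1pr1, 1.73 for Klf2, -1.11 for Id3 and -1.31 for Ldha. Foxp3, at 0.77, and Tox, at 0.76, were no longer called, and Ccr7 stood at -0.03. Of the genes with a call in the main setting, Gbp4, Il21r, Maf and Pigt turned direction. Gata3, which had no call and a ratio of 1.11 among all resting-type cells, stood at -1.22. Areg, Il1rl1 and Ccr8 rest on at most 3 epidermal UMIs and are not given. The median of the effector list was 0.97 in those cells, that of immediate early genes 2.05, of tissue residence genes 1.47, of chemokine and skin homing receptors 0.83 and of lipid and sterol genes 1.69. That of the Tcf7 and Lef1 cofactor and Wnt list was 1.24, of BCL2 family genes 0.78, of proliferation genes 0.77 and of helper T cell cytokines 1.62. Co-inhibitory genes stood at 0.76, against -0.47 among all resting-type cells.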

How the data were processed

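The deposited values were counts, namely unnormalised UMIs of every gene in every called barcode, which the authors made with Cell Ranger on mm10, as the submitters' processing notes name them (version 4.0.0 for the skin libraries, per the file headers; for lymph node not stated). Barcodes numbered 360 for epidermis, 9419 for lymph node and 1077 for dermis. The gate kept barcodes with at least 500 UMIs, 300 genes, at most 10% mitochondrial UMIs and at least 2 UMIs over the T cell genes Cd4, Cd3g, Cd3e and Cd3d. The limit on mitochondrial UMIs took out 57, 19 and 176 barcodes, the T cell genes 24, 95 and 37, and the depth of 1500 UMIs left out 9, 89 and 23 gated cells. Doublets were not called; cells above the 95th UMI percentile were left out as an alternative.

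UMIs were summed over cells, and ratios of CPM had exact intervals from the binomial split. A gene with 0 UMIs was set to a floor of 3 for its ratio. List medians took members with at least 10 CPM in 1 pool. The members, the 21 gene lists and the 13 marker lists of other cell types were chosen with earlier results of these data known. Named genes were a fixed set of Treg and homing genes, the 10 highest and 10 lowest ratios, up to 4 per list with the largest ratios, the 8 highest and 8 lowest differences between cell classes, and the 8 leading genes of resting-type cells within each library. Symbols were those of the matrices, and positions came from GENCODE vM21. Alternatives changed the thinning, rule, gate, scaling, weights and limits. The 20 further draws and 2 alternatives that left out cells were chosen after seeing the data. Thinning, intervals and calls were tested on simulated data. Tools were Python 3.11.15, numpy 2.4.6, pandas 2.3.3, scipy 1.17.1, matplotlib 3.10.9 and, for TMM factors, R 4.3.3 with edgeR 4.0.16. The result of 1 named gene is not reported here.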

Additional observations from a re-analysis of the deposited data

How the results depend on the processing

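No paired analysis was possible because each tissue had 1 library. The share of resting-type cells followed the rule: in epidermis it was 7.84% at 1000 UMIs per cell, 18.3% at 2500, 5.34% with at least 3 rule genes, 8.02% without Bcl2 and 6.80% among cells that held Xist but lacked Y-linked UMIs. In lymph node these were 29.6%, 65.1%, 17.3%, 27.1% and 41.6%, and 39.5% without Tcf7, 34.7% without Lef1, 38.0% without Satb1, 31.2% without Evl and 40.9% without Igfbp4. Against 325 higher and 264 lower genes, there were 512 and 441 among cells with a Foxp3 UMI, 726 and 521 among cells that held Xist but lacked Y-linked UMIs, 679 and 403 with totals that leave out mitochondrial and ribosomal protein genes, 666 and 463 on thinned UMIs, 759 and 681 at 20 CPM, 125 and 115 at 100 CPM, and 124 and 25 with the counting interval past 2-fold. At least 3 rule genes gave 441 lower genes and median-of-ratios scaling 173. Higher genes made up 55.2% of called genes by totals, 45.2% by TMM, 70.6% by median of ratios and 62.8% without mitochondrial and ribosomal protein genes. The median log2 ratio of all genes, -0.15, was -0.24 by TMM and 0.00016 by median of ratios over the same 2768 genes, so every log2 ratio moves by that shift. Without mitochondrial and ribosomal protein genes in the totals it was -0.02. There 4277 genes reached 50 CPM, so the change in the median is not the shift of each ratio.

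The effector median of 0.09 was 1.20 at 1000 UMIs, -0.69 with at least 3 rule genes and 0.97 among cells that held Xist but lacked Y-linked UMIs. Its distance to the other cells, 2.03, was 1.03, 3.03 and 0.90 there, 2.63 without Evl and 1.38 among cells with a Foxp3 UMI. The TGF-beta median was 0.62 at a mitochondrial limit of 5%, and the immediate early median 2.05 among cells that held Xist but lacked Y-linked UMIs.

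Log2 ratios turned for Itgae (-1.32 with another seed, -0.37 with at least 3 rule genes), Maf (-0.17 and -1.71, and -0.19 with Xist but no Y-linked UMI), Nrn1 (-0.57 and -1.48, -0.0027 at 1000 UMIs, -0.70 at 2500, -2.35 without Lef1, -0.11 at 5% mitochondrial UMIs) and Nt5e (-0.76 with another seed, -0.03 at 1000 and at 2500 UMIs). They also turned for Bcl2a1b (0.46 at 1000 UMIs), Cbr1 (0.05) and Mrpl17 (0.23) on thinned UMIs, Foxp3 (-0.61) among cells with a Foxp3 UMI, and Gbp4 (-0.06), Il21r (0.05) and Pigt (0.12) among cells that held Xist but lacked Y-linked UMIs. Only genes with a call in the main setting are listed as turned. The cause was not tested, beyond fewer cells or UMIs where the setting itself leaves them.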
